A study of Homo sapiens with 8 samples.

Results

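The 6 genes described here encode regulators of plasma cell identity, and the measurement is the H3K4me3 called around their transcription start sites (TSS). They are IRF4, PRDM1, XBP1, IKZF1, IKZF3 and POU2AF1. The genes were taken by name, and for each the bases called within 5 kb on either side of a given GRCh37 start site were counted in all 8 libraries. Over the whole series the lists formed 50523 merged regions, and the 6 windows touched 8 of them. The libraries are chromatin immunoprecipitations of H3K4me3 from MM1S, an established human multiple myeloma cell line. In 3 of them the cells had been given 50 uM KDM5-C70, an inhibitor of the KDM5 histone demethylases, for 7 days, and in 5 they had been given DMSO, the vehicle, with no duration in the labels. No other agent or genetic change is named for either group. All libraries share 1 line, and the labels do not say that replicates came from separate cultures, so p-values measure the spread between these libraries, which may be technical.

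H3K4me3 is laid down at the promoters of active genes, mostly on the nucleosomes just downstream of the start site, and KDM5 enzymes remove it. IRF4 and Blimp-1, the product of PRDM1, drive the passage from B cell to plasma cell, and myeloma cells depend on IRF4. XBP1 is the transcription factor of the unfolded protein response that lets a plasma cell secrete antibody. IKZF1 and IKZF3 encode the zinc-finger proteins Ikaros and Aiolos, which lenalidomide sends for degradation, and POU2AF1 encodes OCA-B, a coactivator that works with octamer-binding proteins at immunoglobulin promoters. Protein and RNA of these genes were not measured in these data.

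The promoter sequences of 4 of the 6 genes were found in the RefSeq promoter table of GRCh38.p14, which covers 250 bases before to 50 after each listed start. They are shown because they differ in CpG content, a feature on which H3K4me3 is known to depend. The entry farthest 5′ was taken where a gene had several, and its offset from the GRCh37 start used for the counts was not determined. IRF4 lies at chr6:391502-391801 on the plus strand, XBP1 at chr22:28800520-28800819 on the minus strand, IKZF1 at chr7:50304466-50304765 on the plus strand and PRDM1 at chr6:106086086-106086385 on the plus strand. Capitals mark each CpG.
IRF4: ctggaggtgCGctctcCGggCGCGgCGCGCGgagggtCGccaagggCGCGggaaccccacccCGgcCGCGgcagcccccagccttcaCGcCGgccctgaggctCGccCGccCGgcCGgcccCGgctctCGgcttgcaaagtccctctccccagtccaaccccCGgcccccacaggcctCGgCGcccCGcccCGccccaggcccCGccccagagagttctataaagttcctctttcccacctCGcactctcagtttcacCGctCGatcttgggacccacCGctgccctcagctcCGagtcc
XBP1: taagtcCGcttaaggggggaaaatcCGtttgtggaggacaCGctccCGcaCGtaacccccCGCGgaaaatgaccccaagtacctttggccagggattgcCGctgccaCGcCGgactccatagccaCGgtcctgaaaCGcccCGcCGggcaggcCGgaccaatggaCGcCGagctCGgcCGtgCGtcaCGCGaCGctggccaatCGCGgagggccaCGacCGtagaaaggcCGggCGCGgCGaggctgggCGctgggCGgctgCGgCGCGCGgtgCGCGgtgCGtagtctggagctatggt
IKZF1: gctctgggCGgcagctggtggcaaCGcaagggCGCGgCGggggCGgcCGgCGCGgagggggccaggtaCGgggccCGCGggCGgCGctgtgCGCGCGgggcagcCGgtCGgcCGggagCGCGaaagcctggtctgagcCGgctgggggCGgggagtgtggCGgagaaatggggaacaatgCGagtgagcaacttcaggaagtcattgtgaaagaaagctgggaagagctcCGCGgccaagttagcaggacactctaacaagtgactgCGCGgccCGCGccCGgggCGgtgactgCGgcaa
PRDM1: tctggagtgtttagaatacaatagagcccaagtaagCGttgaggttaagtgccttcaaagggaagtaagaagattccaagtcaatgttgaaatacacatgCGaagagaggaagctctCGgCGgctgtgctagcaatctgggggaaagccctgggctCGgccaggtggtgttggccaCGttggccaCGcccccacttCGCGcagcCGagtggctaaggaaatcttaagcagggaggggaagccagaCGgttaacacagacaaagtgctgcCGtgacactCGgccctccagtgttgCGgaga

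These runs hold 40 CpG in XBP1, 35 in IKZF1, 32 in IRF4 and 14 in PRDM1. The median over the 35116 entries of the table is 14, so PRDM1 sits at the middle of all promoters and the other 3 lie above 81.1% of them or more. The GC content is 74% in IRF4, 71% in IKZF1, 68.7% in XBP1 and 54.3% in PRDM1. The letters TATAAA occur 1 time, in IRF4, and in 11.5% of all entries. The GC box GGGCGG occurs 4 times in IRF4, 5 times in IKZF1, 1 time in XBP1 and 0 times in PRDM1, and in 45% of all entries. The letters CCACG, part of unfolded protein response elements, occur 3 times in XBP1 and 2 times in PRDM1, and CCAAT occurs 2 times in XBP1 and in none of the other 3 (38.1% and 34.6% of all entries). GGGAAA occurs 1 time each in IRF4, PRDM1 and XBP1 (26.3% of entries) and GGAAGT 1 time each in PRDM1 and IKZF1 (22.8%). The octamer ATGCAAAT (1.77% of entries), the E-box CACGTG (7.26%), the cyclic AMP response element TGACGTCA (1.85%), the interferon-stimulated response element (3.57%) and the Blimp-1 type element (0.202%) are in none of the 4. All were searched on both strands, and GGGAAA can overlap the last pair and CCACG the E-box. No match says only that these letters are not in the 300 bases shown.

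The depth of the libraries is unknown, since only called regions are held, and a window without a call may still hold the mark. Lists held 15323 to 32376 regions in DMSO and 17977 to 37948 in KDM5-C70 libraries. DMSO 1, DMSO 2 and KDM5-C70 1 have shorter lists and stand apart from the other 5 libraries, a division seen only in the data, so values are also given within each of these sets. A called region carries inner segments, the stricter blocks inside it. They made up 68.2 to 76.3% of called sequence in DMSO and 56.5 to 58.4% in KDM5-C70 libraries over the whole genome, and this difference lies beside every count of inner bases below. Its part in those counts was not tested.

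**Figure D1:**
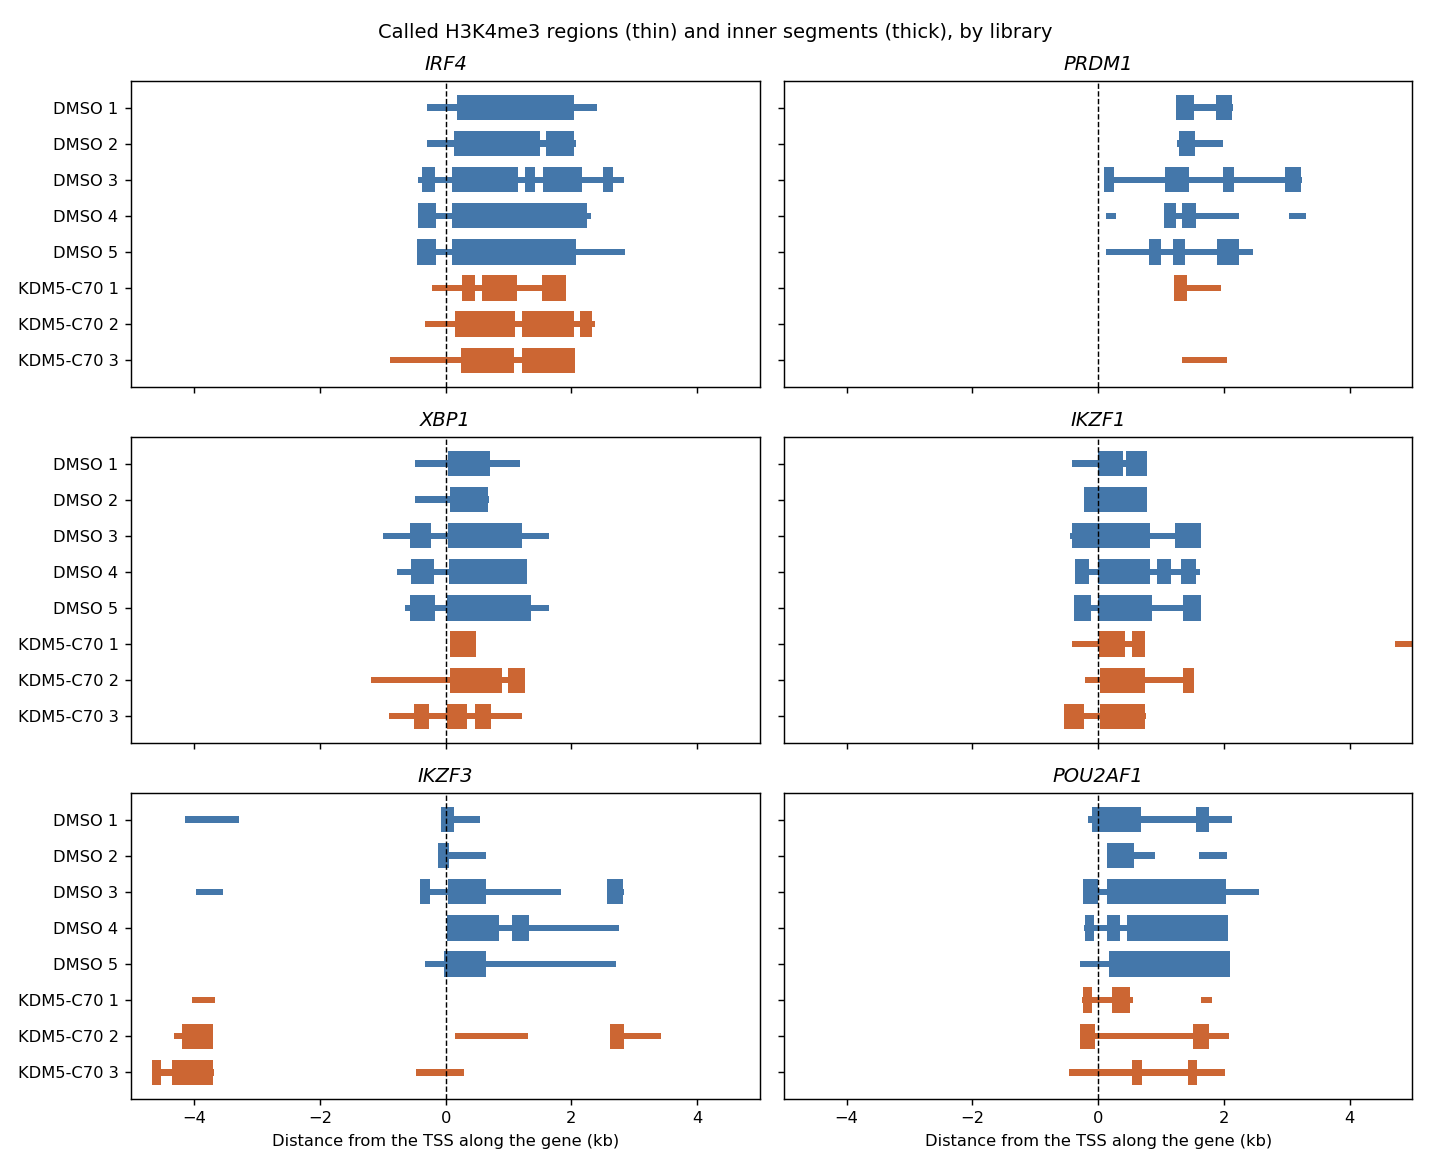
Called H3K4me3 regions (thin bars) and inner segments (thick bars) in the 8 libraries (rows, DMSO blue, KDM5-C70 orange) by distance in kb from the TSS along each gene. The longest thick bar of IRF4 and of POU2AF1 is shorter in each KDM5-C70 row than in any DMSO row, PRDM1 is called downstream of its TSS only, and IKZF3 has no thick bar within 2 kb of its TSS in the 3 KDM5-C70 rows.

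IRF4 had the most called bases of the 6 genes in each of the 8 libraries, and its longest inner segment was shorter in the KDM5-C70 libraries. Its TSS is chr6:391739 (GRCh37, plus strand), and the merged region from 390859 to 394598 was called in all 8 libraries. The called bases were 2699, 2360, 3270, 2764 and 3315 bp in DMSO 1 to 5 and 2132, 2704 and 2936 bp in KDM5-C70 1 to 3. The groups overlap, and their means of 2882 ± 406 bp (SD, n = 5) and 2591 ± 414 bp (SD, n = 3) differed by less than the spread (exact permutation p = 0.393). The inner bases were 1852, 1794, 2212, 2435 and 2279 bp in DMSO and 1158, 1969 and 1683 bp with KDM5-C70, so that KDM5-C70 2 lies above the 2 lowest DMSO libraries. Their difference of -511 bp was larger than the SD of DMSO (279 bp) and of KDM5-C70 (411 bp), but the groups overlap (exact permutation p = 0.143).

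The longest inner segment at IRF4, a measure chosen after the data were seen, separated the groups, while the called length did not. The longest inner segment was 1852, 1356, 1053, 2147 and 1979 bp in DMSO 1 to 5 and 558, 958 and 849 bp in KDM5-C70 1 to 3, without overlap, as in 2.62% of the comparison windows described below (exact permutation p = 0.0357, unadjusted). In DMSO 1, 4 and 5 it ran unbroken from at most 187 bp to at least 2038 bp downstream of the TSS. In KDM5-C70 2 and 3 the segment over the first kilobase ended 1107 and 1086 bp downstream and a gap followed. KDM5-C70 1 had segments from 255 to 469 bp and from 577 to 1134 bp downstream, with a gap after each. DMSO 3 and DMSO 2 had a gap as well, after 1156 and 1495 bp. A further inner segment, at positions between -454 and -148 bp from the TSS, was present in DMSO 3, 4 and 5 and in 0 of the 3 KDM5-C70 libraries, although all 3 were called there in part. The TSS itself was called in 8 of 8 libraries and lay outside the inner segments in all of them. With a window of 2 kb the inner bases were 1966 ± 211 bp (SD, n = 5) in DMSO and 1508 ± 308 bp (SD, n = 3) with KDM5-C70 and did not overlap (exact permutation p = 0.0357, unadjusted), while the called bases in that window differed by 63.6 bp in the other direction.

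PRDM1 showed the largest relative difference of the 6 genes, with less H3K4me3 called in KDM5-C70 libraries. Its TSS is chr6:106534195 (plus strand), and no library called the TSS itself. The merged region from 106534295 to 106537506 begins 100 bp downstream of it, whereas the TSS of IRF4, XBP1, IKZF1 and POU2AF1 was called in 7 libraries or more. The called bases were 912, 731, 3138, 1619 and 2349 bp in DMSO 1 to 5 and 740, 0 and 717 bp in KDM5-C70 1 to 3. KDM5-C70 2 had no call in the window, although its list covers 32.7 Mb in all, and KDM5-C70 1 lies just above DMSO 2, so the groups overlap. The means were 1750 ± 1005 bp (SD, n = 5) and 486 ± 421 bp (SD, n = 3; exact permutation p = 0.0714).

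Inner bases at PRDM1 fell without overlap between the groups. They were 544, 259, 952, 400 and 735 bp in DMSO 1 to 5 and 199, 0 and 0 bp in KDM5-C70 1 to 3, means of 578 ± 273 bp (SD, n = 5) and 66.3 ± 115 bp (SD, n = 3). The exact permutation p was 0.0357, unadjusted, the smallest that the 56 ways to divide 8 libraries into 5 and 3 allow. Of the 12 such tests on called and inner bases within 5 kb of the 6 genes it was the only one under 0.05. Separation of this kind was found in 1.37% of all 23077 windows of the same size around the centres of regions called in at least 5 libraries. Within each set of libraries the separation follows from that over all 8. The values were 199 bp in KDM5-C70 1 against a mean of 402 bp in DMSO 1 and 2. In the other set a mean of 0 bp in KDM5-C70 2 and 3 stood against 696 bp in DMSO 3, 4 and 5. All 5 DMSO libraries called the stretch from 1254 to 1984 bp downstream of the TSS, and 50 bp of it, from 1334 to 1383 bp, was inner sequence in all 5. The fold enrichment deposited for the widest region was 2.55 to 4.19 in DMSO, 2.13 in KDM5-C70 1 and 4.99 in KDM5-C70 3. With any 1 library left out the difference in inner bases ranged from -591 to -418 bp. The groups cannot overlap there, since they do not over all 8, and no exact test can give a p under 0.0571.

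XBP1 was called across its TSS in 7 of 8 libraries, and the called lengths of the groups overlapped. The TSS is chr22:29196560 (minus strand), inside the merged region from 29194917 to 29197751. The called bases were 1671, 1180, 2640, 2058 and 2283 bp in DMSO 1 to 5 and 408, 2451 and 2110 bp in KDM5-C70 1 to 3. KDM5-C70 1 stands below all other libraries and did not call the TSS, while KDM5-C70 2 and 3 lie within the range of DMSO, and the means of 1966 ± 563 bp (SD, n = 5) and 1656 ± 1094 bp (SD, n = 3) did not differ beyond the spread (exact permutation p = 0.643). Without KDM5-C70 1 the difference turned from -310 to 314 bp.

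Inner bases at XBP1 were 681, 617, 1505, 1599 and 1741 bp in DMSO and 406, 1088 and 815 bp with KDM5-C70. Each KDM5-C70 library lies below the DMSO libraries of its own set, but the groups overlap over all 8 (difference -459 bp, exact permutation p = 0.25). The downstream inner segment began 18 to 76 bp after the TSS in every library. It reached 1219 to 1355 bp in DMSO 3, 4 and 5, but 714 and 680 bp in DMSO 1 and 2, and 477 bp in KDM5-C70 1. In KDM5-C70 2 and 3 it ended at 904 and 336 bp, and a second piece reached 1258 and 723 bp.

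IKZF1 had an inner segment over its TSS in each DMSO library, and the corresponding segment began after the TSS in each KDM5-C70 library. The TSS is chr7:50343720 (plus strand), in the merged region from 50343172 to 50345357. Counted from the TSS as position 0, the segment started at -5, -229, -421, -3 and -1 bp in DMSO 1 to 5. In KDM5-C70 1 to 3 it started at 19, 29 and 31 bp. The TSS base was thus inner sequence in 5 of 5 DMSO and 0 of 3 KDM5-C70 libraries. This comparison was noticed in the data and not tested, and the starts of DMSO 1, 4 and 5 lie closer to those with KDM5-C70 than the length of a nucleosome. How many windows or start sites split in this way was not computed. A separate inner segment upstream lay from -543 to -222 bp in KDM5-C70 3, from -371 to -150 bp in DMSO 4 and from -388 to -108 bp in DMSO 5. Called bases were 1205, 1013, 2080, 1997 and 2021 bp in DMSO and 1432, 1744 and 1307 bp with KDM5-C70 (exact permutation p = 0.643). The KDM5-C70 libraries lie between the lower and the upper DMSO values. KDM5-C70 1 also called a region from 4720 to 5005 bp downstream, which crosses the edge of the window. Inner bases were 731, 1009, 1670, 1526 and 1423 bp against 615, 892 and 1040 bp, and they overlap through DMSO 1 and 2 (difference -423 bp, exact permutation p = 0.179).

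IKZF3 differed in where the inner segments lay. Its TSS is chr17:38020441 (minus strand), at one end of the merged region from 38017015 to 38020910, which was called in 5 DMSO and 2 KDM5-C70 libraries. Within 2 kb of the TSS the inner bases were 213, 183, 745, 1101 and 672 bp in DMSO 1 to 5 and 0, 0 and 0 bp in KDM5-C70 1 to 3 (exact permutation p = 0.0357, unadjusted). KDM5-C70 2 and 3 did call regions there, of 1166 and 757 bp, without an inner segment, and KDM5-C70 1 called none. The fold enrichment deposited for those regions was 3.52 and 4.68, against 1.57 to 3.94 for the DMSO regions nearest the TSS. Beyond 2 kb downstream, KDM5-C70 2 held an inner segment of 220 bp and DMSO 3 another of 250 bp. Upstream of the gene, a further merged region from 38023725 to 38025119, at -4678 to -3284 bp from the TSS, was called in DMSO 1 and 3 and in 3 of 3 KDM5-C70 libraries. It held inner segments in KDM5-C70 2 and 3 (500 and 803 bp) and in 0 of 5 DMSO libraries. In the RefSeq gene table, which is of GRCh38.p14, ZPBP2 is the other gene within 5 kb of the start of IKZF3.

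Over the full window of 5 kb, which takes in both regions, the groups did not separate at IKZF3. The inner bases there were 213, 183, 995, 1101 and 672 bp in DMSO and 0, 720 and 803 bp with KDM5-C70, which overlap widely (exact permutation p = 0.679). The difference of -125 bp turned to 129 bp without KDM5-C70 1. Called bases were 1490, 765, 2928, 2744 and 3032 bp against 365, 2603 and 1757 bp (exact permutation p = 0.393), and in each set of libraries the KDM5-C70 values lie below those of DMSO.

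At POU2AF1 the called lengths of the groups overlapped, while the longest inner segment was shorter in each KDM5-C70 library than in any DMSO library. The TSS is chr11:111250157 (minus strand), near one end of the merged region from 111247591 to 111250613. The GRCh38.p14 table lists RNU2-60P and BTG4 within 5 kb of the start of this gene, so the window counts are not its alone. The called bases were 2295, 1210, 2812, 2290 and 2383 bp in DMSO 1 to 5 and 985, 2377 and 2480 bp in KDM5-C70 1 to 3, which overlap (exact permutation p = 0.571). Without KDM5-C70 1 the difference of -251 bp turned to 231 bp. The fold enrichment deposited for the widest region was 1.65 to 3.7 in DMSO and 1.39 to 1.96 in KDM5-C70 libraries, and was not tested. The inner bases were 986, 425, 2142, 1955 and 1915 bp in DMSO and 442, 498 and 296 bp with KDM5-C70. DMSO 2 lies among the KDM5-C70 values and the other 4 DMSO libraries above them, with means of 1485 ± 743 bp (SD, n = 5) and 412 ± 104 bp (SD, n = 3; exact permutation p = 0.107).

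The difference at POU2AF1 was larger in the 5 libraries with longer lists, with mean inner bases of 397 bp against 2004 bp, than in the other 3, with 442 bp against 706 bp. In the former the inner share of the called bases was 76.2, 85.4 and 80.4% in DMSO 3, 4 and 5 and 21% and 11.9% in KDM5-C70 2 and 3. In the latter it was 43% and 35.1% in DMSO 1 and 2 and 44.9% in KDM5-C70 1. The longest inner segment, a measure chosen after the data were seen, was 778, 425, 1906, 1603 and 1915 bp in DMSO 1 to 5 and 289, 254 and 150 bp with KDM5-C70, without overlap, as in 2.62% of windows (exact permutation p = 0.0357, unadjusted). In DMSO 3, 4 and 5 it ended 2042 to 2090 bp downstream of the TSS. All 3 KDM5-C70 libraries held 2 short segments each, and no base was inner sequence in all 3.

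**Figure D2:**
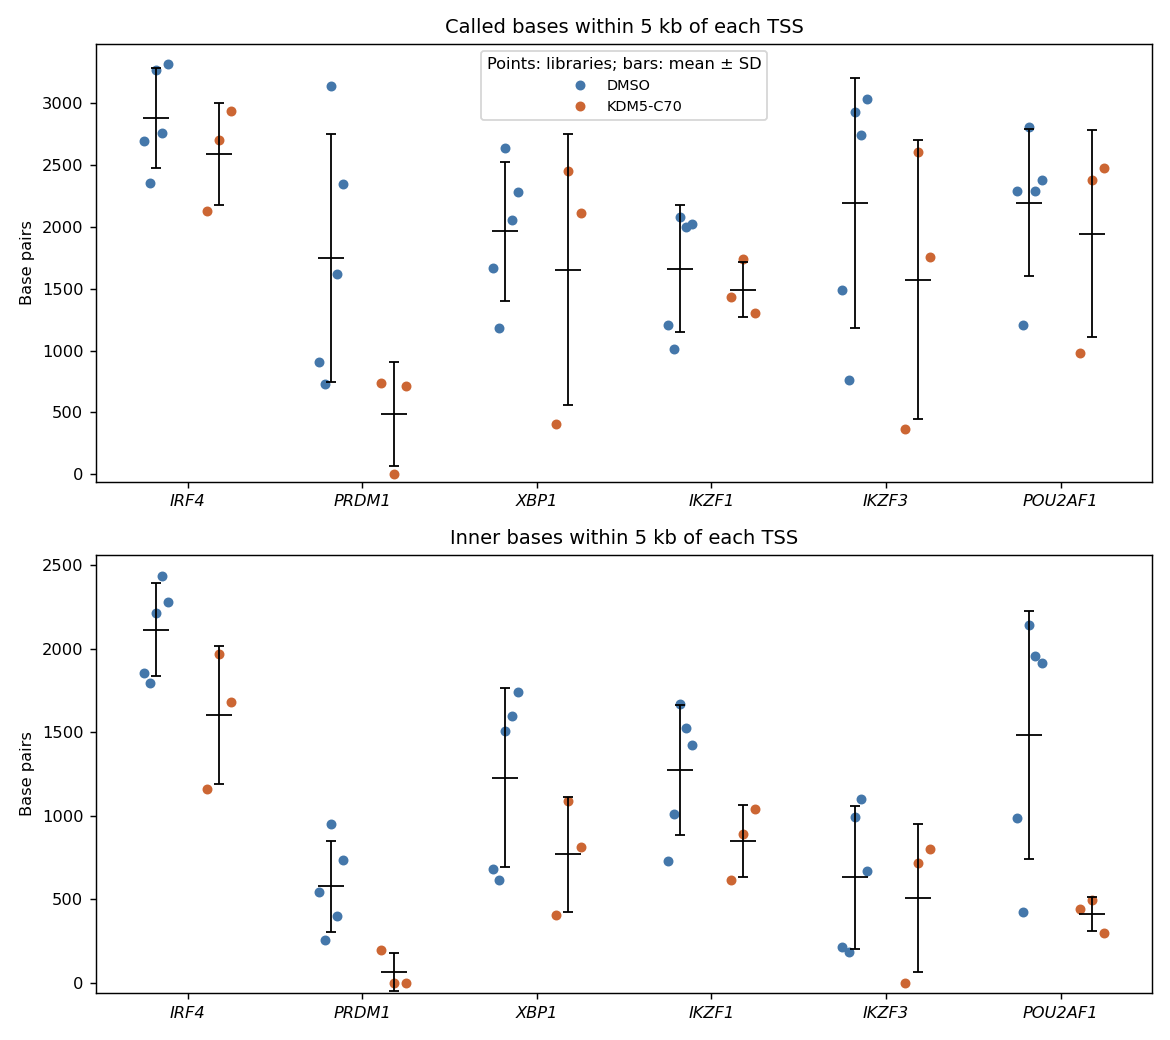
Called bases (upper plot) and inner bases (lower plot) in bp within 5 kb of each TSS, with 1 point per library and the mean ± SD of 5 DMSO and 3 KDM5-C70 libraries. PRDM1 inner bases, at most 199 bp with KDM5-C70 and at least 259 bp with DMSO, are the only ones of the 12 comparisons without overlap.

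**Figure D3:**
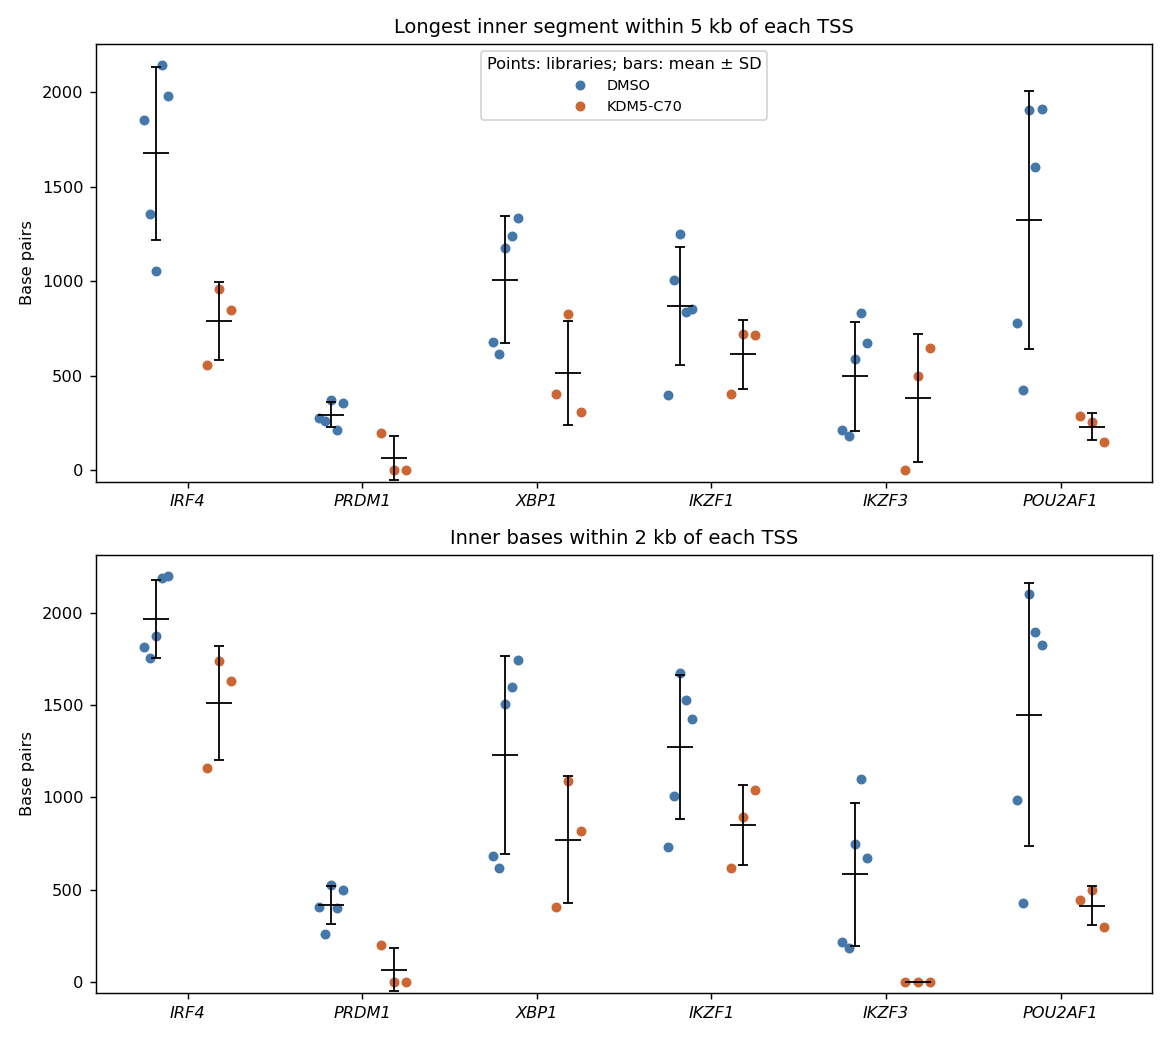
Length of the longest inner segment within 5 kb (upper plot) and inner bases within 2 kb (lower plot) of each TSS, in bp, with 1 point per library and the mean ± SD of 5 DMSO and 3 KDM5-C70 libraries. The groups do not overlap for IRF4, PRDM1 and POU2AF1 in the upper plot and for IRF4, PRDM1 and IKZF3 in the lower plot.

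All 6 genes had a lower mean of called bases in the KDM5-C70 libraries, where 23.7% of all windows had a lower mean (22% of those with a mean of at least 1000 called bp, as all 6 genes have). All 6 also had a lower mean of inner bases, where 57.1% of all windows did (66.2% of those with at least 1000 called bp). The 6 genes were named as a group with results of these libraries known, so these counts are descriptions. On the scale of log2(mean bp + 200), the ratio of KDM5-C70 to DMSO for called bases was -1.51 at PRDM1, -0.43 at IKZF3, -0.22 at XBP1, -0.16 at POU2AF1 and -0.14 at both IRF4 and IKZF1, and the median of all windows was 0.16. For inner bases it was -1.55 at PRDM1 and -1.46 at POU2AF1, which lie below all but 0.178% and 0.264% of windows, while the other 4 genes lay between -0.56 and -0.23 and the median was -0.04. Within the set of DMSO 1, DMSO 2 and KDM5-C70 1 the mean of called bases was lower in 5 of the 6 genes, with IKZF1 as the exception, and that of inner bases in 6 of 6. In the other 5 libraries both were lower in 6 of 6. The share of all windows with a lower mean within each set was not computed, so nothing is read from these counts. KDM5-C70 1 is also the only treated library of the first set.

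Counted by separation of all values, fewer genes stood out. No gene had called bases in KDM5-C70 libraries below those of every DMSO library (0 of 6, against 0.338% of all windows and 0.522% of those with a mean of at least 1000 called bp), and 1 of 6 had such inner bases (1.37% and 2.41%). No gene lay above DMSO without overlap, as 0.602% of windows did for called and 0.026% for inner bases. The inner share of called bases lay below DMSO without overlap in 0 of the 5 genes called in all 8 libraries, which leaves out PRDM1, and in 12.4% of the 14066 windows in which it could be computed. Within both sets of libraries at once, the KDM5-C70 values lay below DMSO in 1 gene for called bases (IKZF3, against 1.98% of windows) and in 4 genes for inner bases (IRF4, PRDM1, XBP1 and IKZF1, against 10.9% of windows). By the longest inner segment, a measure chosen after the data were seen, 3 of 6 separated, against 2.62% of windows, and by inner bases within 2 kb 3 of 6, against 1.43%. The windows compared are centred on regions and not on start sites, and a gene with longer segments in DMSO has more room to differ.

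**Figure D4:**
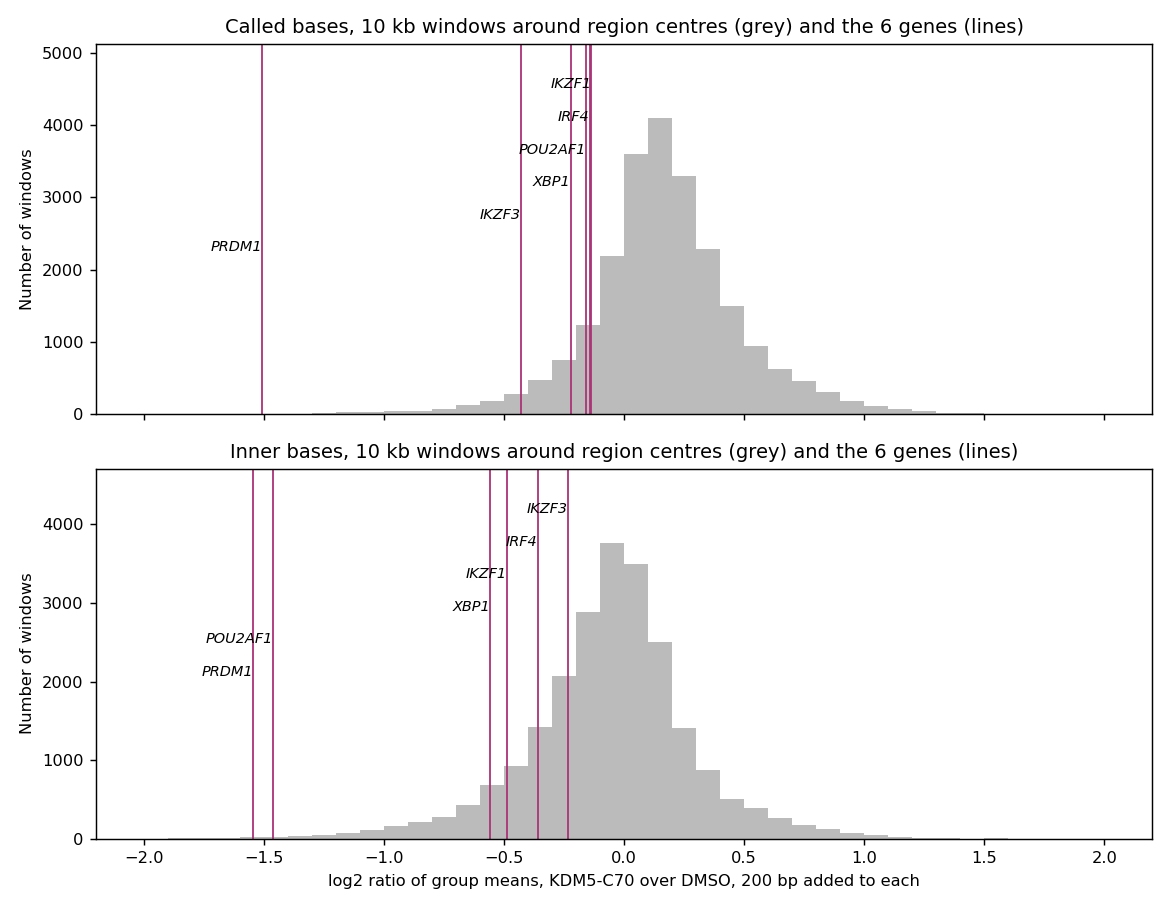
Number of 10 kb windows (grey bars, 23077 in all) by the log2 ratio of group means, KDM5-C70 over DMSO, with 200 bp added to each mean, for called bases (upper plot) and inner bases (lower plot). Lines mark the 6 genes, all left of the medians of 0.16 and -0.04.

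Fits across all regions called in every library gave no call at any of the 4 genes they cover. In limma on log2 called width, 0 of 13729 regions passed an adjusted p of 0.05 (0% in either direction). At an unadjusted p under 0.05 there were 242, and 0.809% of regions were narrower with KDM5-C70 at that level, 0 of the 4 genes among them. The log2 changes were -0.15 (SE 0.17) at IRF4, -0.56 (SE 0.53) at XBP1, -0.21 (SE 0.29) at IKZF1 and -0.24 (SE 0.35) at POU2AF1, each with a limma adjusted p of 0.994, beside a median of 0.14 over all regions. With each library centred on its median they were -0.31, -0.72, -0.36 and -0.39 in the same order, beside a median of -0.016. With the set of libraries as a term as well, the unadjusted limma p of the 4 genes was 0.00908 to 0.0385. There 1987 of 13729 regions lay under 0.05 in either direction (814 wider), and the limma adjusted p of the 4 genes was 0.217 to 0.318. PRDM1 and IKZF3 were each missing from 1 KDM5-C70 list and entered only an added fit over 25023 regions with 200 bp added. There their changes were -1.65 (SE 0.56) and -1.29 (SE 0.71), below all but 0.02% and 0.0719% of regions, and neither passed (limma adjusted p = 1).

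In the fit of the inner share, 55 of 13729 regions (0.401%) were lower with KDM5-C70 at an adjusted p under 0.05, and 0 of the 4 genes were among them. At an unadjusted p under 0.05 it was 19.5% of regions and 1 of the 4 genes, POU2AF1. POU2AF1 changed by -38.1 percentage points (SE 13.6, limma adjusted p = 0.173), lower than all but 2.94% of regions. IRF4 changed by -12.3 points (SE 7.48, limma adjusted p = 0.387) and IKZF1 by -16.1 points (SE 10.2, limma adjusted p = 0.408), near the median of -10.8 points over all regions. XBP1 changed by 0.041 points (SE 14.7, limma adjusted p = 0.999), with KDM5-C70 1 at 99.5% and KDM5-C70 2 and 3 at 44.4 and 38.6%, and without KDM5-C70 1 the change was -19.3 points. With each library centred on its median over all regions the changes were -25.3 points at POU2AF1, -3.36 at IKZF1, 0.40 at IRF4 and 12.8 at XBP1. The standard errors are large beside the changes at IRF4, IKZF1 and XBP1 and smaller beside that at POU2AF1. A p above the threshold does not show that the groups are alike.

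Ordered by the mean of the DMSO libraries, called bases were 2882 ± 406 bp at IRF4, 2198 ± 593 bp at POU2AF1, 2192 ± 1010 bp at IKZF3, 1966 ± 563 bp at XBP1, 1750 ± 1005 bp at PRDM1 and 1663 ± 511 bp at IKZF1 (SD, n = 5 for each). From POU2AF1 to IKZF1, neighbours in this order lie within their spread. IRF4 ranked above at least 95.8% of the windows of the same library in each of the 8 libraries. Ranks carry the length of each list, since 731 bp at PRDM1 ranked at the 62nd percentile in DMSO 2, with 15323 regions, and 717 bp at the 19.3rd in KDM5-C70 3, with 37948 regions. The groups' ranks did not overlap for called bases at IRF4 and PRDM1, as in 1.95% of windows, and overlapped for inner bases at all 6 genes, where 3.12% of windows separated, and for the reason given no change is read from either.

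The marked sequence lay mostly downstream of the start sites. In DMSO libraries the downstream share of called bases was 100% at PRDM1, 92.5 ± 4.54% at POU2AF1, 86.8 ± 1.93% at IRF4, 76.6 ± 6.74% at IKZF1, 76.2 ± 24.3% at IKZF3 and 65.2 ± 6% at XBP1 (SD, n = 5). With KDM5-C70 it was 82.7 ± 11% at IRF4, 81 ± 7.14% at POU2AF1, 72.4 ± 14.9% at IKZF1 and 69.6 ± 26.5% at XBP1 (SD, n = 3), ranges that overlap those of DMSO at IRF4, IKZF1 and XBP1. At POU2AF1 the highest KDM5-C70 share was 87.8% and the lowest DMSO share 88.2%. This narrow gap was not tested, and how many windows separate in this way was not computed. At IKZF3 the downstream share with KDM5-C70 was 30.7 ± 39.9%, which includes the upstream region described above.

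Over the 8 libraries the called bases of the genes varied together, with Pearson's r from 0.431 (XBP1 and PRDM1) to 0.943 (POU2AF1 and XBP1), and all share the length of each library's list. For single regions, the closest in log2 called width was chr2:54784747-54788454 for IRF4 (r = 0.989), chr3:195351225-195352309 for XBP1 (r = 0.998), chr8:25314728-25315893 for IKZF1 (r = 0.99) and chr8:1991969-1995435 for POU2AF1 (r = 0.995), over 8 libraries each. Of the 13729 regions compared, r was over 0.9 in 243 for IRF4, 763 for XBP1, 402 for IKZF1 and 1076 for POU2AF1, and the median r over all regions was 0.657, 0.638, 0.666 and 0.719.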

How the data were processed

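The 6 genes, their windows, the tests and the alternatives were chosen with earlier results of these data known. Per the submitters' processing notes, the tools were MACS2 2.1.0, Bowtie 1.1.2, HOMER 4.8 and Trim Galore 0.40, with GRCh37. Their settings, and whether an input control was used, are not stated in these sources. The authors deposited 1 list of regions per library, not pooled, with 15 columns and no header: positions, inner blocks, a display score, a fold enrichment (ratio), and p- and q-values as -log10. The score, deposited by the authors, was not used here, and the ratio, also theirs, is quoted at PRDM1, IKZF3 and POU2AF1 and entered no test. The -log10 q-value, deposited by the authors, served only for stricter lists (at least 5). Blocks of 1 bp were not counted as inner segments. Called and inner bases within 5 kb of each GRCh37 TSS were summed per library on chromosomes 1 to 22 and X. Strands of IKZF3 and POU2AF1 are textbook knowledge.

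Regions of all lists overlapping by at least 1 bp were merged. Window values were compared by a 2-sided exact permutation test (56 arrangements, smaller tail doubled, unadjusted). Merged regions called in all 8 libraries were tested with limma 3.58.1 (R 4.3.3), first on the log2 of called width (variance trend) and on the inner share (no trend), 2-sided, with Benjamini-Hochberg adjustment at 0.05. The comparison windows are 10 kb around the centres of the 23077 merged regions called in at least 5 libraries. Named were the 6 genes and, for the 4 called in all libraries, the region most correlated in width. Other B cell and plasma cell regulators on the list were not analysed here, since no GRCh37 start sites were used for them. Steps were tested on simulated data. Scripts used Python 3.11.15 with pandas 2.3.3, numpy 2.4.6 and scipy 1.17.1, and figures matplotlib 3.10.9. Depth is unknown, so no counting interval is given.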

Additional observations from a re-analysis of the deposited data

How the results depend on the processing

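Called regions and not reads were compared, with 3 libraries against 5, so the depth behind a missing call is unknown and the exact permutation test cannot give a p under 0.0357. Of 292 recomputed values of single genes, 263 kept their direction and their side of the threshold, 9 became weaker, 7 stronger and 13 reversed. Counts of regions or genes are not among the 292. Many of those counts changed, as given below. Where a value changed, the cause was not tested unless fewer regions or libraries are named.

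In limma, regions called changed in width went from 0 to 10 with the replicate block (2 wider, 8 narrower), 27 with the set of libraries as a term and centred libraries (5 wider, 22 narrower), and 1 with stricter lists, where only 10 regions were left to test. Regions called lower in inner share went from 55 to 0 with the replicate block, 376 with the set of libraries as a term, 0 with centred libraries, 0 with both, 0 with a variance trend, 0 with stricter lists and 9 with regions within 1000 bp joined. Centring moved the median inner share change from -10.8 to 1.93 points. Leaving out 1 library gave between 0 and 107 of these calls, the latter without KDM5-C70 1. Same-numbered libraries had correlations of 0.367, -0.306 and 0.318 for numbers 1 to 3, and DMSO 2 with KDM5-C70 1 had 0.415. Their signs follow the sets of libraries, so they cannot tell whether replicate numbers are paired. The replicate block also turned the IKZF1 width change to 0.016.

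Genes with called bases below DMSO without overlap went from 0 to 1 with stricter lists (PRDM1), 2 by rank within the library (IRF4 and PRDM1; ranks carry list length, and no change is read from them), and 0 to 1 when 1 library was left out (PRDM1, without DMSO 2 or without KDM5-C70 1). For inner bases the count of 1 became 3 within 2 kb, 3 by the longest segment, 0 by rank, and 1 to 2 when 1 library was left out (with POU2AF1 added without DMSO 2, and IRF4 without KDM5-C70 2). The IRF4 difference in called bases was 63.6 bp within 2 kb. Its inner share change was 0.40 points with centred libraries and 0.45 with the set term as well.

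Leaving out 1 library at a time, the difference in called bases ranged from -707 to 314 bp at XBP1 and from -517 to 231 bp at POU2AF1, and in inner bases from -273 to 129 bp at IKZF3. The width change ranged from -1.03 to 0.26 at XBP1 and from -0.47 to 0.20 at POU2AF1, and the inner share change at XBP1 from -19.3 to 11.1 points. The highest value was the one without KDM5-C70 1 in each of these except the XBP1 inner share, where that was the lowest. The longest segment, the ranks and the fit with 200 bp added were chosen after seeing the data, and a variance trend was tried for the inner share since the fit reported has none.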
